A study of Mus musculus with 5 samples.

Results

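The 10 genes described here encode receptors that steer T cells through lymphoid tissue. They are the chemokine receptors Cxcr4, Cxcr5, Ccr7, Ccr4, Ccr8, Cxcr3 and Cxcr6 and the sphingosine 1-phosphate (S1P) receptors S1pr1, S1pr2 and S1pr4. They were taken by gene name from 57186 annotated genes, and each name matched 1 gene. The RNA came from mouse spleen Tfr cells (follicular regulatory T cells), which are CD4 T cells that express Foxp3 and work in the B cell follicle, sorted by CD4, Foxp3, CXCR5, PD-1 and ICOS. All mice had received imiquimod, a TLR7 agonist, and cells were taken at 21 days. The 3 WT libraries came from Foxp3-GFP reporter mice. The 2 Cebpa_KO libraries came from Foxp3-Cre Cebpa-flox/flox mice, in which a Cre driven by Foxp3 removes Cebpa, which encodes the transcription factor C/EBP alpha, in Foxp3-expressing cells. Thus the Foxp3 allele also differed between the groups. Sorted cells of several mice were pooled per library, so an SD or p-value measures the spread between pools.

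Chemokine and S1P receptors are G protein-coupled receptors that turn a gradient of ligand into directed movement. CXCR5 follows CXCL13 into the B cell follicle, CCR7 follows CCL19 and CCL21 into the T cell zone, and CXCR4 follows CXCL12, made by stromal cells. S1PR1 senses the S1P of blood and lymph and carries T cells out of lymphoid organs, whereas S1PR2 inhibits migration and holds cells in germinal centres. CCR4, CCR8, CXCR3 and CXCR6 are receptors of effector and tissue-homing T cells.

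Levels are TPM (transcript abundance per unit length) scaled between libraries, with the SD over libraries. Aligned depth was 6.77 to 7.08 gigabases per library. Cebpa was at 12.8 to 17.7 in WT, against 0.317 and 0.550 in Cebpa_KO. Foxp3, one of the sort markers, was at 83.0, 107 and 105 in WT but only at 6.74 and 5.58 in Cebpa_KO, so the transcript that defines the sorted cell type was far lower in the cells labelled Tfr of that genotype. Xist was at 11.4 and 10.7 in Cebpa_KO and at most 0.0220 in WT, and 4 Y-linked genes summed to 151 to 162 in WT, against most 0.0311 in Cebpa_KO, so the sex of the mice followed genotype and the effects of sex and genotype cannot be told apart. The WT libraries were not alike: 8 stress and early response genes summed to 244 and 248 in WT replicates 1 and 2, to 2834 in WT replicate 3 and to 3824 and 4075 in Cebpa_KO.

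Of the 10 receptors, 5 fell in Cebpa_KO, 1 rose and 4 did not pass the test (limma across 16254 genes, Benjamini-Hochberg adjusted p under 0.05). Cxcr4, S1pr1, Ccr4, S1pr4 and Cxcr5 fell and Ccr8 rose. Over all tested genes 9.82% fell and 9.93% rose. The median log2 difference of the 10 was -0.86, beside 0.01 over all tested genes. The groups did not overlap in 6 receptors that were lower and 3 that were higher in Cebpa_KO, where 28% and 28.7% of all tested genes were so placed. The exact two-sided permutation test of the 5 libraries gave p = 0.1, the smallest that 10 splits allow, for 7 receptors. They include Cxcr3, which did not pass limma. The share of all tested genes at that smallest p was not computed. The calls rested on both Cebpa_KO libraries: with either left out, only Cxcr4 passed. Without WT replicate 1, Cxcr5, Ccr8 and S1pr1 did not pass (adjusted p = 0.0564, 0.0635 and 0.0557), and without WT replicate 2 neither did these or S1pr4 (0.0712, 0.0761, 0.0726 and 0.0531).

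**Figure D1:**
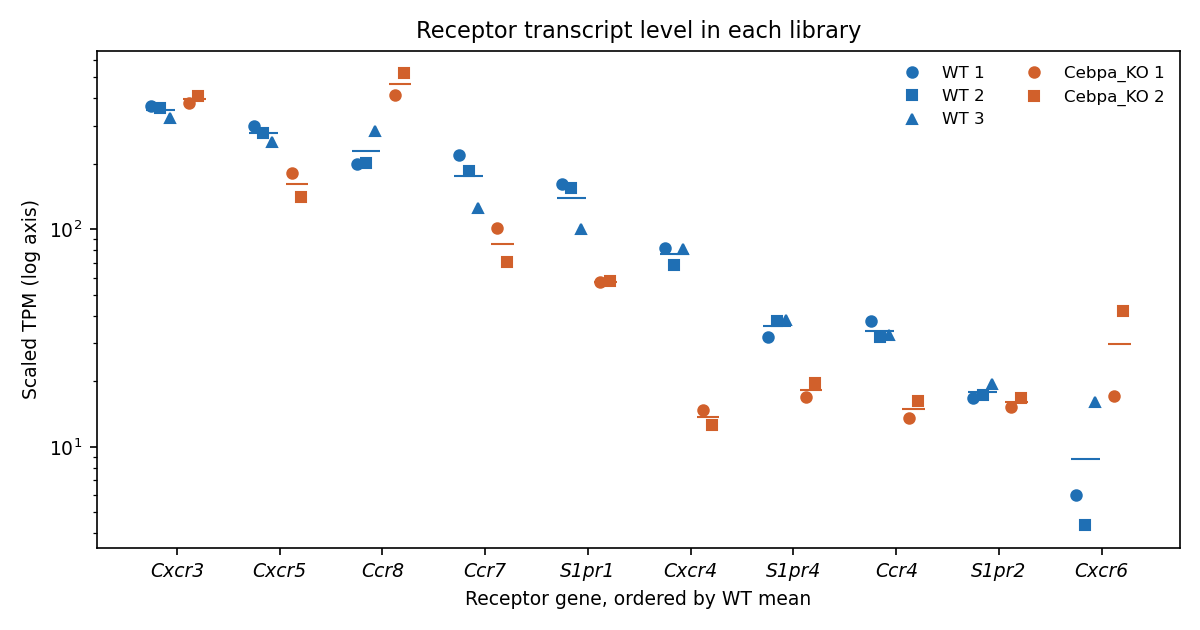
Scaled TPM of the 10 receptors (log axis) in each library, with WT in blue, Cebpa_KO in orange and a line at each group mean. Cxcr4 was at 68.3 to 82.1 in WT, against 12.6 and 14.8 in Cebpa_KO, whereas the S1pr2 values of the groups overlap.

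The DNA before the start site is shown for the called receptors with an entry in the RefSeq promoter table (GRCm38.p6), so that the gene with the largest change can be set beside the others. Cxcr4, Ccr4 and S1pr4 fell and Ccr8 rose. Each sequence is the 250 bases before the annotated start, 5′ to 3′ on the gene's strand. Capitals mark matches, on either strand, to 3 motifs: TTNCNNAA (C/EBP), GTAAACA (FOXO) and CCNCNCCC (KLF).
Cxcr4, chr1:128592300-128592549, minus strand: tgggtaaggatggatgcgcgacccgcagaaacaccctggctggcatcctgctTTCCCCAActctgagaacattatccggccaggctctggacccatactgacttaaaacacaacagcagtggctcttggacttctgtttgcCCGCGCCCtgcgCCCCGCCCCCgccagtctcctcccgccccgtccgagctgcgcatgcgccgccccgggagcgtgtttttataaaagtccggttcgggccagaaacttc
Ccr4, chr9:114496545-114496794, minus strand: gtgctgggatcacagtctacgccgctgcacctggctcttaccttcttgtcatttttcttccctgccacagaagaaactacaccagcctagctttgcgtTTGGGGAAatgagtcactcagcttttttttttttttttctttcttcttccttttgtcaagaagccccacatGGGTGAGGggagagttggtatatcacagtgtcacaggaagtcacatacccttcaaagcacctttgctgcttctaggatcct
S1pr4, chr10:81500138-81500387, minus strand: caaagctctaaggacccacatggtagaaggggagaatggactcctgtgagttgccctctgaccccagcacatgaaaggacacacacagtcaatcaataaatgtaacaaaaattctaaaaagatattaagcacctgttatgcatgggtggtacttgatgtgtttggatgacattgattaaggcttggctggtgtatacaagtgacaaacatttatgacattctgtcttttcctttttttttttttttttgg
Ccr8, chr9:120091883-120092132, plus strand: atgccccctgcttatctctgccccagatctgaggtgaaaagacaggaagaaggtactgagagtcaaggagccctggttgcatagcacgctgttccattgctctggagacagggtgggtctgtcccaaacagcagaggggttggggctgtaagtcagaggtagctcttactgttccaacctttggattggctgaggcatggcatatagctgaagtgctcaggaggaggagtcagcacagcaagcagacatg
The Cxcr4 sequence held 1 C/EBP match and 3 KLF matches, of which a pair overlap, in a window of 61.2% GC with 19 CpG sites. Ccr4 held 1 C/EBP and 1 KLF match, both on the opposite strand, at 46.4% GC. The S1pr4 and Ccr8 windows held no match to the 3 motifs. Among all 32851 windows of this length in the table, 36.9% held the C/EBP letters, 3.17% the FOXO letters and 45.9% the KLF letters, so matches to the C/EBP and KLF letters are common among genes. The table matched 7 of the 10 receptors. Cxcr5, Ccr7 and S1pr1 were not among them. Of the matched receptors that did not pass, Cxcr3 held 1 C/EBP match, S1pr2 held 1 KLF match and Cxcr6 held no match.

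Cxcr4 (ENSMUSG00000045382, mm39 chromosome 1, 128515936 to 128520030) had the largest fall of the 10. It stood at 82.1, 68.3 and 81.5 in WT replicates 1, 2 and 3 and at 14.8 and 12.6 in Cebpa_KO. Every Cebpa_KO value was far below every WT value, and WT replicate 3 was level with WT replicate 1. The mean was 5.64 times lower in Cebpa_KO, and the log2 difference was -2.41 (standard error 0.13, limma adjusted p = 0.00281). It passed in all 17 alternative settings tried, with adjusted p between 0.00162 and 0.0464. It went from the sixth highest of the 10 receptors in WT to the lowest in Cebpa_KO. Profiles of 8244 genes over the 5 libraries were set against Cxcr4 by Euclidean distance of centred log2 values. The nearest were the keratin gene Krt83 (0.15), the sodium pump subunit Atp1b1 (0.23) and the matrix gene Matn2 (0.40). Such a distance mostly follows the size of the group difference, which was -2.40, -2.53 and -2.67 in these genes. Shared regulation was not tested.

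Cxcr5 (ENSMUSG00000047880, chromosome 9, 44423084 to 44473174), whose protein was a gate of the sort, stood at 298, 278 and 252 in WT, against 181 and 141 in Cebpa_KO. The groups did not overlap, and the mean was 1.71 times lower (log2 difference -0.78, standard error 0.14, limma adjusted p = 0.0206). All 5 libraries came from cells sorted as CXCR5-positive. Set against WT replicate 3 alone it was -0.66 (adjusted p = 0.110), in a fit where that lone WT library is assumed to vary like Cebpa_KO. The gene overlaps Bcl9l on the opposite strand at its end, and Bcl9l was at 3.29 or less in every library.

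Ccr7 (ENSMUSG00000037944, chromosome 11, 99035022 to 99045903) was lower in both Cebpa_KO libraries than in any WT library but did not pass. It stood at 219, 186 and 125 in WT, against 101 and 70.5 in Cebpa_KO. WT replicate 3 lay nearer to Cebpa_KO replicate 1 than to the other WT libraries. The log2 difference was -1.02, with a 95% confidence interval from -1.72 to -0.32 (limma, adjusted p = 0.0577). Without WT replicate 3 it was -1.25 and passed (adjusted p = 0.0175), and set against WT replicate 3 alone it was -0.57.

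S1pr2 (ENSMUSG00000043895, chromosome 9, 20873657 to 20888077) was the receptor whose groups overlapped. It stood at 16.8, 17.3 and 19.5 in WT, against 15.3 and 16.8 in Cebpa_KO. The log2 difference was -0.14, and its 95% interval ran from -0.44 to 0.15 (limma, adjusted p = 0.413). A change of 2-fold in either direction lies outside that interval.

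Among the S1P receptors, S1pr1 and S1pr4 fell. S1pr1 (ENSMUSG00000045092, chromosome 3, 115504082 to 115508721) stood at 162, 154 and 101 in WT, against 57.0 and 57.8 in Cebpa_KO. The Cebpa_KO libraries were nearly equal, and WT replicate 3 lay between them and the other WT libraries. The mean was 2.42 times lower (log2 difference -1.23, standard error 0.22, limma adjusted p = 0.0213). With WT replicates 1 and 2 the fold was 2.75, and with WT replicate 3 alone it was 1.75.

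S1pr4 (ENSMUSG00000044199, chromosome 10, 81333581 to 81335966), an S1P receptor of lymphocytes, stood at 32.1, 37.9 and 38.3 in WT, against 16.9 and 19.7 in Cebpa_KO. Here WT replicate 3 was the highest library. The mean was 1.97 times lower (log2 difference -0.94, standard error 0.13, limma adjusted p = 0.0121). This call depends on the annotated gene row: in every library the assembled locus that covers S1pr4 ran from 81322083 through the neighbouring gene Ncln on the same strand, and the value of that joint locus was higher in Cebpa_KO by 0.18 on the log2 scale (adjusted p = 0.172). Ncln itself was at 61.6, 62.8 and 67.1 in WT, against 81.1 and 85.8 in Cebpa_KO. Together the 3 S1P receptors summed to 211, 209 and 158 in WT, against 89.2 and 94.3 in Cebpa_KO, without overlap. Most of the sum was S1pr1, with a mean of 139 of 193 in WT and 57.4 of 91.7 in Cebpa_KO.

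Ccr4 (ENSMUSG00000047898, chromosome 9, 114319384 to 114333984), the receptor for CCL17 and CCL22, stood at 38, 32 and 32.5 in WT, against 13.6 and 16.1 in Cebpa_KO. The 3 WT libraries were close together, and both Cebpa_KO libraries were below them. The mean was 2.30 times lower (log2 difference -1.15, standard error 0.13, limma adjusted p = 0.00884). It passed in 15 of 17 alternative settings, and the 2 exceptions each left out 1 of the Cebpa_KO libraries (0.0758 and 0.0739).

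Ccr8 (ENSMUSG00000042262, chromosome 9, 119921180 to 119923972), the receptor for CCL1 found on activated regulatory T cells, was the receptor that rose. It stood at 200.04, 202 and 282 in WT, against 413 and 521 in Cebpa_KO. WT replicate 3 was the highest WT library and still below both Cebpa_KO libraries. The mean was 2.05 times higher (log2 difference 1.04, standard error 0.19, limma adjusted p = 0.0232). With WT replicates 1 and 2 the fold was 2.32, and with WT replicate 3 alone it was 1.66 (adjusted p = 0.0917), under the same assumption on the lone WT library.

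Cxcr3 (ENSMUSG00000050232, chromosome X, 100775141 to 100777875), the receptor for the interferon-induced chemokines CXCL9, CXCL10 and CXCL11, was the most abundant of the 10 in WT. It stood at 369, 362 and 326 in WT, against 382 and 412 in Cebpa_KO. The groups did not overlap, but the gap was small, at 0.17 on the log2 scale with a 95% interval from -0.05 to 0.40 (limma, adjusted p = 0.225). The gene is X-linked, and the sex of the mice followed the genotype.

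Cxcr6 (ENSMUSG00000048521, chromosome 9, 123635540 to 123640825), the receptor for CXCL16, was the least abundant in WT and the most variable. It stood at 6.0, 4.36 and 16 in WT, against 17.1 and 42.0 in Cebpa_KO. WT replicate 3 was close to Cebpa_KO replicate 1, and Cebpa_KO replicate 2 stood well above the other 4 libraries. The log2 difference was 1.70, with a 95% interval from 0.18 to 3.21 (limma, adjusted p = 0.105). It passed without WT replicate 3, at 2.19 (adjusted p = 0.0295). The gene lies within Fyco1 on the opposite strand. Reads of this pair cannot be told apart unless counting used strand, which is not stated, and Fyco1 was at 7.75 to 10.3 in WT, against 4.70 and 4.68 in Cebpa_KO.

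**Figure D2:**
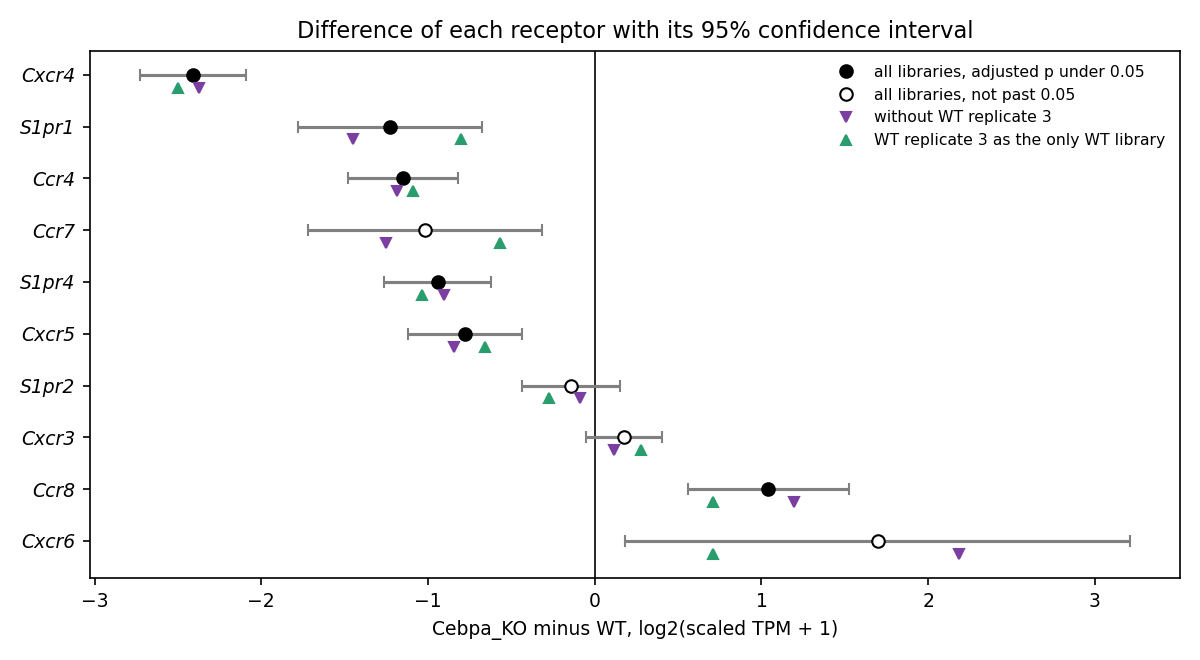
Difference of each receptor, Cebpa_KO minus WT on the log2(scaled TPM + 1) scale, with its 95% confidence interval (limma), filled where the adjusted p was under 0.05. Triangles give the value without WT replicate 3 and against it alone: for Cxcr4, Ccr4 and S1pr4 these lie close together, and for Ccr7 they are at -1.25 and -0.57.

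The receptors thus differed in where WT replicate 3 stood. In Cxcr5, Ccr7, S1pr1, Ccr8 and Cxcr6, 5 of the 10, it lay between WT replicates 1 and 2 on one side and both Cebpa_KO libraries on the other, as in 20% of all tested genes. In Cxcr4 and Ccr4 it lay within the range of the other WT libraries, and in S1pr4, S1pr2 and Cxcr3 it lay beyond them on the side away from the Cebpa_KO mean. The part of the stress and early response genes in these differences was not tested.

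By level, the order in WT was Cxcr3, Cxcr5, Ccr8, Ccr7, S1pr1, Cxcr4, S1pr4, Ccr4, S1pr2 and Cxcr6. The libraries of the neighbours Cxcr5 and Ccr8, Ccr8 and Ccr7, Ccr7 and S1pr1, and S1pr4 and Ccr4 overlapped, and the other neighbours were separate. In Cebpa_KO the order was Ccr8, Cxcr3, Cxcr5, Ccr7, S1pr1, Cxcr6, S1pr4, S1pr2, Ccr4 and Cxcr4, with overlap between Cxcr6 and S1pr4, S1pr2 and Ccr4, and Ccr4 and Cxcr4. The top of the order thus passed from Cxcr3 to Ccr8.

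The summed level of the 10 receptors was 1346 ± 74.6 (SD, n = 3) in WT and 1261 ± 68.9 (SD, n = 2) in Cebpa_KO, and the libraries of the groups overlapped. Its make-up differed. Ccr8 made up 14.1%, 15.1% and 22.1% of the sum in WT and 34.1% and 39.8% in Cebpa_KO. Cxcr5 made up 19.8% to 20.9% in WT and 14.9% and 10.8% in Cebpa_KO, and Cxcr4 5.09% to 6.40% in WT and 1.22% and 0.97% in Cebpa_KO. Cxcr3 held 25.6% to 27.0% in WT and 31.5% and 31.4% in Cebpa_KO. These shares sum to a whole and are not independent of each other.

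**Figure D3:**
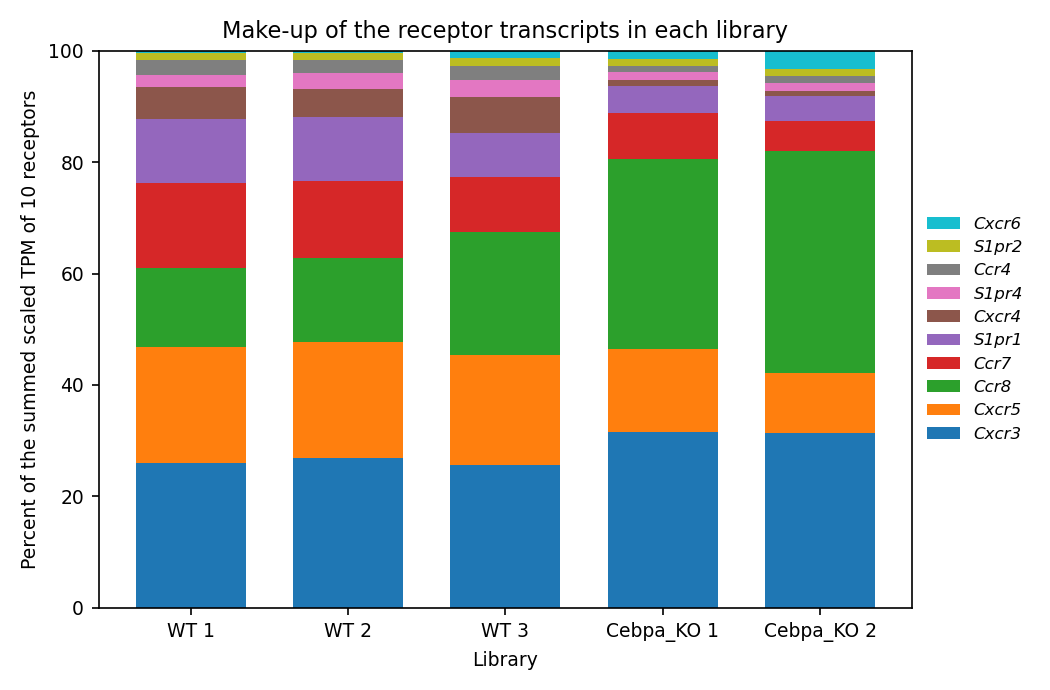
Percent of the summed scaled TPM of the 10 receptors held by each, 1 bar per library. The Ccr8 segment is at 14.1% to 22.1% in WT, against 34.1% and 39.8% in Cebpa_KO.

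Mean read coverage per base of these genes ranged from 13.1 for Cxcr6 in WT replicate 2 to 1539 for Ccr8 in Cebpa_KO replicate 2. The low receptor S1pr2 had 32.2 to 40.7. In position, 5 of the 10 genes, Cxcr5, Ccr4, Ccr8, Cxcr6 and S1pr2, lie on chromosome 9. They include falls, a rise and genes that did not pass.

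Most other chemoattractant receptors were low: of 25 listed, 15 were below a TPM of 1 in every library, among them S1pr3 and S1pr5, and 9 were tested. None passed (limma), where 9.82% of all tested genes fell and 9.93% rose. At an unadjusted p under 0.05 (limma), 2 were lower and 1 higher. Of all 16254 tested genes, 3063 were lower and 3050 higher at that threshold. The following were chosen after their values were seen. Gpr183, the oxysterol receptor EBI2 that places cells at the outer follicle, stood at 236, 215 and 149 in WT, against 140 and 121 in Cebpa_KO (log2 difference -0.59, adjusted p = 0.111). Gpr18 had a log2 difference of -1.16 (adjusted p = 0.053), and Ccrl2, a receptor that binds chemerin without signalling, one of 1.11 (adjusted p = 0.094).

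Of 11 ligands of these receptors 2 were tested, and both rose, where 9.93% of all tested genes rose. Cxcl10, a CXCR3 ligand, stood at 22.1, 20.6 and 30.6 in WT, against 130 and 138 in Cebpa_KO (log2 difference 2.43, limma adjusted p = 0.00543). Ccl1, the CCR8 ligand, stood at 1.15, 0.579 and 3.80 in WT, against 17.0 and 26.3 in Cebpa_KO (log2 difference 3.13, limma adjusted p = 0.0173). No library of one group reached the other in either gene, and 28.7% of all tested genes were higher without overlap. So for CCR8 both ligand and receptor transcripts rose, whereas for CXCR3 the ligand rose and the receptor did not pass. Cxcl12, the CXCR4 ligand, was listed at 0 in all 5 libraries, and Cxcl13, the CXCR5 ligand, at 0.269 or less.

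Among 15 genes of S1P and ceramide turnover or S1P transport, 11 were tested. Of these 2 fell and 1 rose, or 18.2% and 9.09%, against 9.82% and 9.93% of all tested genes. Sphk2, a sphingosine kinase, fell by 0.52 and Cerk by 0.93 as log2 differences (limma, adjusted p = 0.0192 and 0.0128). Cerk phosphorylates ceramide, so 1 of the 2 falls was not in a gene that makes, moves or breaks down S1P. The other sphingosine kinase, Sphk1, stood at 0.219, 0.00797 and 0.228 in WT, against 3.15 and 1.47 in Cebpa_KO (log2 difference 1.48, adjusted p = 0.0218). Sphk1, the 1 rise of the list, reached a TPM of 1 only in Cebpa_KO. It thus entered the test through that group and could only be called as a rise. Its level stayed far below that of Sphk2, at 26.8 and 28 in Cebpa_KO. The median of the list was -0.25.

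Signalling genes downstream of the receptors fell more often than they rose. Of 28 tested 9 fell and none rose, or 32.1% and 0%, against 9.82% and 9.93% of all tested genes. At an unadjusted p under 0.05 (limma), 12 were lower and none higher, where 3063 of all 16254 tested genes were lower and 3050 higher. The median of the 28 was -0.34. Rgs10, a regulator that shortens G protein signals, went from 291 ± 20.7 (SD, n = 3) to 109 ± 12.1 (SD, n = 2). Gna12, a G protein alpha subunit, fell by 0.68, Arrb2, the arrestin that uncouples receptors, by 0.51 and Rac2, a GTPase of leukocyte movement, by 0.43 as log2 differences (limma, adjusted p = 0.012, 0.0191 and 0.0313). Gna13, a G protein alpha subunit used by S1PR2, stood at 92.6, 86.1 and 104 in WT, against 92.0 and 101 in Cebpa_KO (adjusted p = 0.813). It was chosen after its values were seen.

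Of 18 regulators of receptor expression or display 4 fell and 2 rose, or 22.2% and 11.1%, against 9.82% and 9.93% of all tested genes, so the share of rises was near that of all genes. Foxo1, a transcription factor that sustains Klf2 and Ccr7, stood at 79.9, 78.8 and 81.2 in WT, against 43.0 and 39.1 in Cebpa_KO (log2 difference -0.95, limma adjusted p = 0.00623). Klf2, the factor that drives S1pr1 in T cells, stood at 111, 112 and 77.5 in WT, against 65.8 and 52.2 in Cebpa_KO. It was lower without overlap but did not pass (log2 difference -0.74, adjusted p = 0.0564). Cd69, whose protein pulls S1PR1 from the surface, stood at 123, 108 and 178 in WT, against 160 and 142 in Cebpa_KO, which overlap (log2 difference 0.17, adjusted p = 0.599). Tbx21, the factor T-bet that activates Cxcr3, rose by 1.43 and Id3, an inhibitor of E proteins, fell by 1.61 as log2 differences (limma, adjusted p = 0.00923 and 0.0055). Zeb2, a repressor of the zinc finger family, stood at 0.0811, 0.0669 and 0.138 in WT, against 3.09 and 3.84 in Cebpa_KO. It rose by 2.02 as a log2 difference (limma, adjusted p = 0.0055). Zeb2, 1 of the 2 rises, reached a TPM of 1 only in Cebpa_KO, so it could only be called as a rise.

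Adhesion genes that act with the receptors in homing fell in 5 and rose in 1 of 11, or 45.5% and 9.09%, against 9.82% and 9.93% of all tested genes. Selplg, the selectin ligand PSGL-1, and the integrin chain Itgb7 fell by 0.95 and 0.75 as log2 differences (limma, adjusted p = 0.00835 and 0.0169). Gcnt1, which builds core 2 O-glycans on selectin ligands, rose from 1.65, 1.77 and 2.48 in WT to 17.6 and 18.3 in Cebpa_KO (log2 difference 2.69, adjusted p = 0.00433).

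**Figure D4:**
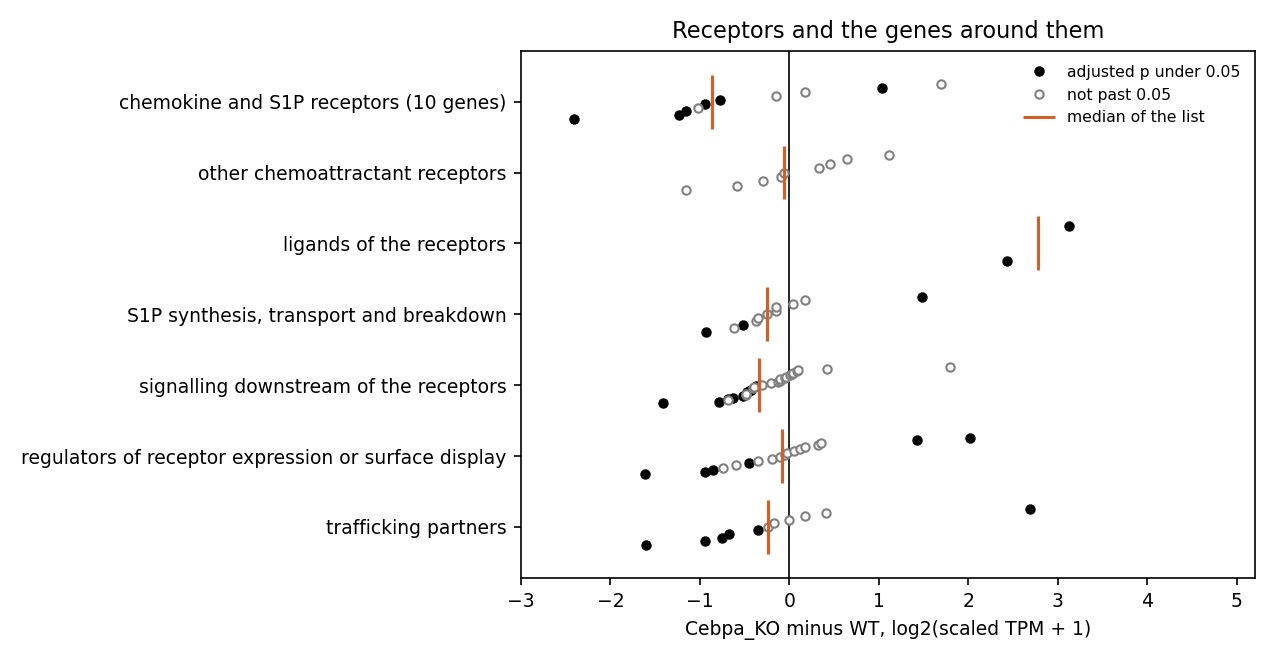
Log2 difference, Cebpa_KO minus WT, of the 10 receptors and of each tested gene in 6 lists around them, filled where the limma adjusted p was under 0.05, with the median of each list as a line. The receptor median is at -0.86, and both tested ligands are above 2.

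Transcripts of other cells were present in the pools, and in bulk RNA fewer cells of a type and less RNA per cell cannot be told apart. B cells carry CXCR5, CCR7, CXCR4 and S1PR1 as well, and 7 B cell markers, led by Cd79a and Cd79b, summed to 78.8, 68.0 and 120 in WT, against 239 and 51.4 in Cebpa_KO. The 6 plasma cell markers, led by Igkc and Jchain, summed to 778 to 9599 in WT, against 1837 and 4898 in Cebpa_KO, and Ighg1 alone among them rose. The 6 neutrophil markers, led by S100a9 and S100a8, summed to 9.03 to 63.8 in WT, against 57.1 and 274 in Cebpa_KO. The 5 red blood cell genes, led by Hba-a1 and Hbb-bs, summed to 39.6 to 452 in WT, against 150 and 1405 in Cebpa_KO, and the 6 monocyte and macrophage markers, led by Lyz2 and Cd68, to 60.9 to 109 and to 49.0 and 122. The 6 dendritic cell markers, led by Zbtb46, summed to 7.16 or less, with Clec9a at 0 in WT. Of 4 NK markers, which summed to 45.6 to 66.1 in WT, against 14.2 and 20.8 in Cebpa_KO, Klrb1c fell. Of 2 CD8 markers, Cd8a was at 0.200 or less, while Cd8b1 was at 17.3 to 23.5 in WT, against 16.1 and 14.7 in Cebpa_KO. In the Tfr and T cell list 7 of 9 genes fell, or 77.8% against 9.82% of all tested genes, while Cd4 and Pdcd1 did not pass. All 9 were lower in Cebpa_KO without overlap, as were 28% of all tested genes. The 7 include Cxcr5, itself among the 10 receptors, and Bcl6, which is also in the list of regulators. The part of other cells in the receptor values was not tested.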

How the data were processed

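Per the submitters' processing notes, reads were aligned with STAR 2.7.11b to mm39 and quantified with StringTie 2.1.3b. The annotation release, and whether counting used strand, are not stated there. Per the file headers, the authors deposited coverage, a signal per base, FPKM and TPM for each of 5 libraries. TPM was handled as a score, since the deposited column holds assembled loci (summing to 1000000) and annotated genes (96.7% to 97.6% of that). Annotated rows were used. The ratio of coverage to the deposited FPKM gave the aligned depth. Without read counts, neither count models nor counting intervals could be used.

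Libraries were scaled by median ratios over genes at a TPM of 1 or more in all of them (factors 0.984 to 1.04). The 16254 genes that reached a TPM of 1 in 2 or more libraries, including the 10 receptors, were tested on log2(scaled TPM + 1), a scale that understates changes of low genes, with limma 3.58.1 in R 4.3.3 (intensity trend, Benjamini-Hochberg adjustment over all genes, threshold 0.05). The fit was tested on simulated data. Promoter sequences are from RefSeq. The receptors, lists and alternatives were chosen with earlier results of these data known. Named genes are the receptors, Cebpa, Foxp3, Klf2, Cd69, the ligands above a mean of 5, up to 4 called genes of each list with the smallest p, the 2 highest of each marker list and the 3 profiles nearest to Cxcr4, with additions marked in the text. A gene that this rule takes is not reported here. The alternatives were other pseudocounts (0.1 and 5), filters, scalings, weights and variance priors, each library left out, WT replicate 3 alone against Cebpa_KO, and a replicate block. The assembled loci matched by position and strand were added after seeing the data, because assembled rows carry no gene name.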

Additional observations from a re-analysis of the deposited data

How the results depend on the processing

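Cxcr4, Cxcr3 and S1pr2 kept their direction and their side of the threshold in all 17 settings, and no receptor but S1pr4 changed direction in any. S1pr4 stood at 0.18 in the assembled loci, where its locus includes Ncln. With no filter, 38302 genes were tested, 3 receptors fell and 0 rose (limma, with 6 lower and 1 higher at an unadjusted p under 0.05), and over all genes 629 fell and 930 rose, against 1596 and 1614 in the reported fit. Array weights gave 6 falls and 2 rises among the receptors, with Ccr7 and Cxcr6 added, and 2440 and 2575 over all genes. With WT replicate 3 alone for WT, 4 receptors fell and 0 rose (limma, 5 and 2 at an unadjusted p under 0.05), and 647 and 1014 genes over all, the lone WT library being assumed to vary like Cebpa_KO. Leaving out 1 library gave 1 to 6 receptors lower and 0 to 2 higher (limma, with 1 or 2 higher at an unadjusted p under 0.05), and over all genes 18 to 1825 lower and 5 to 2177 higher. Over all genes the highest counts came without WT replicate 3 and the lowest without Cebpa_KO replicate 2, where the lone Cebpa_KO library is assumed to vary like WT. The cause of these shifts was not tested.

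The replicate numbers were not shown to pair the samples: deviations from the group means correlated at -0.179 across genes for number 1 and at 0.269 for number 2. With the replicate block, 6 receptors fell and 1 rose, Ccr7 being the addition (limma, adjusted p = 0.0225), and over all genes 1050 fell and 1359 rose. Number 3 exists only in WT, so with the block WT replicate 3 adds nothing to the difference between the groups. The Ccr7 log2 difference was -1.25 both with the block and without WT replicate 3. Assembled loci carrying a gene name were not run, as none carries one. The files hold no counts, so a limit from counting error could not be given for any receptor.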
